A study of Mus musculus with 6 samples.

Results

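The collagen and matrix genes of the mouse kidney are described here, together with the genes that cross-link, cleave and regulate matrix. Members were taken by name: collagens, laminins, the Adamts, Lox, Mmp, Timp and Tgfb genes, and Fn1, Dcn, Lum, Bgn, Postn, Sparc, Vim, Acta2, Tagln, Pdgfra and Pdgfrb. The rule found 92 of the 13696 genes in the tables. One of them, Col4a3bp, matches only by its letters, since it encodes a ceramide transfer protein. Total RNA from kidneys of 24-month-old mice was sequenced in 6 libraries, 3 of wild-type (WT) genotype and 3 of a fat-1 knockin genotype. The fat-1 gene comes from a nematode and encodes a desaturase that converts omega-6 into omega-3 fatty acids. It is unrelated to the mouse gene Fat1. The promoter of the insert, the sex of the mice and their feed are not in the labels used here. Expression of the insert was not analysed here, and the genotype therefore rests on the labels. Nothing in the labels ties a library to its own animal, and p-values cover only the spread between these samples, which may be technical.

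Kidney matrix has compartments with different makers. Fibroblasts and related stromal cells build the interstitial matrix from fibril-forming collagens, mainly types I, III and V, with small proteoglycans such as decorin, and scarring of the aging kidney lays down more of it. Basement membranes are sheets of type IV collagen and laminin under the epithelia and vessels, and the glomerular one carries a specialised type IV network that podocytes secrete. Lysyl oxidases cross-link the fibres, Mmp and Adamts proteases cut them, Timp proteins inhibit those proteases, and TGF-beta is the best known signal that raises matrix genes.

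Expression is given as FPKM, that is fragments per kilobase, scaled to the fragments mapped in each library, summed over the listed transcripts of a gene. Members made up between 0.248% and 0.313% of the summed FPKM of a library. Markers of the proximal tubule, thick ascending limb and principal cells of the kidney were present in all 6 libraries, with no gene of these lists at 0. WT replicate 1 stood apart for these genes. It was the highest of the 6 libraries for 31 of 64 tested members (48.4%), where it was highest for 25.2% of all tested genes, and WT replicate 2 was the lowest for 29 of 64 (45.3%, against 19.9% of all genes). Macrophage and lymphocyte markers were high in the same library. The 10 macrophage markers summed to 929 FPKM in WT replicate 1, to 105 and 135 in the other WT libraries and to between 116 and 219 in fat-1. The lymphocyte markers summed to 363 FPKM in WT replicate 1 and to between 34.2 and 113 in the other 5 libraries. The part of these cells in the matrix values was not tested, and values without WT replicate 1 are given for members whose sign or separation of groups it changes most.

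Start regions of 3 loci are shown, chosen to stand for the fibril-forming and type IV collagens: Col27a1, the single member called in the comparison, Col3a1, a fibril-forming collagen that lay lower in fat-1, and the short gap from which Col4a4 and Col4a3 are transcribed in opposite directions. The sequences are the bases just before the start site, from RefSeq on GRCm38.p6 (the mm10 build). Of the 92 members, 58 had an entry. Capitals mark a match on either strand to 1 of 4 motifs: the GC box GGGCGG, the CCAAT box CCAAT, the TATA box TATAAA and the nuclear receptor half-site AGGTCA.
Col27a1, chr4:63215162-63215411, plus strand: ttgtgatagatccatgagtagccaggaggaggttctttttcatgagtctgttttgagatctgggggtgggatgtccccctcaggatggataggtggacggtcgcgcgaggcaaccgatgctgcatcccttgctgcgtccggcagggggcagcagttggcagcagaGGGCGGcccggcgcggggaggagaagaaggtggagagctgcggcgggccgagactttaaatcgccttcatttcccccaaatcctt
Col3a1, chr1:45311288-45311537, plus strand: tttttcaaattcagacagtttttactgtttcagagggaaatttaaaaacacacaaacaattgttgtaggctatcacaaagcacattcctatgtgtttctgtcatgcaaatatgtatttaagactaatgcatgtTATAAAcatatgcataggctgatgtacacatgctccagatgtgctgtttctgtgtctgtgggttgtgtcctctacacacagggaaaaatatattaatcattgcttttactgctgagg
Col4a4, chr1:82586850-82586975, minus strand: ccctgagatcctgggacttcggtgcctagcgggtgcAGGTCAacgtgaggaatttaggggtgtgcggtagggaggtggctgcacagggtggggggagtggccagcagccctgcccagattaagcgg

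The Col27a1 window holds 1 GC box, which begins 85 bases before the start, and 59.6% of its 250 bases are G or C. The Col3a1 window has 35.2% G and C and 1 TATA box match, which begins 117 bases before the start. The whole gap between Col4a4 and Col4a3 is 126 bases long, 64.3% of it G or C, with 1 half-site match that begins 90 bases before the Col4a4 start. Among 32817 windows of 250 bases before mouse start sites, 32.7% hold the GC box, 33.8% the CCAAT box, 12.4% the TATA box and 14.0% the half-site. In the 126 bases nearest the start, 7.22% hold the half-site. The matches are given as a description of these windows.

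The comparison asks what the fat-1 insert goes along with in the aged kidney. Of the 92 members, 64 reached 1 FPKM in at least 3 libraries and were tested within a fit of all 11698 such genes (limma on log2(FPKM + 1), Benjamini-Hochberg adjustment over all of them). Col27a1 rose, and it was the single member with an adjusted p under 0.05. Over all genes, 0.120% were called higher and 0.0598% lower. At an unadjusted p under 0.05, 6 of the 64 members were higher and 4 lower in fat-1, beside 5.80% and 4.16% of all genes. All 3 fat-1 libraries lay above all 3 WT libraries in 7 of the 64 members and in 8.33% of all genes. Col13a1 and Mmp12, among these 7 and among the 6 higher ones, passed the filter only through their fat-1 libraries. They lay below all WT libraries in 4 of the 64 and in 6.86% of all genes. The 2 directions together made 17.2% of members and 15.2% of all genes. The median difference of members, fat-1 minus WT, was 0.05 on the log2 scale with 36 of 64 positive, and that of all genes was 0.01. The plot of differences by role shows how few members stand clear of 0. For 42 of the 64, the 95% interval lies within 1 log2 unit of 0 on both sides. In bulk tissue, fewer cells of a type and less RNA per cell cannot be told apart, and this holds for every value below.

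**Figure D1:**
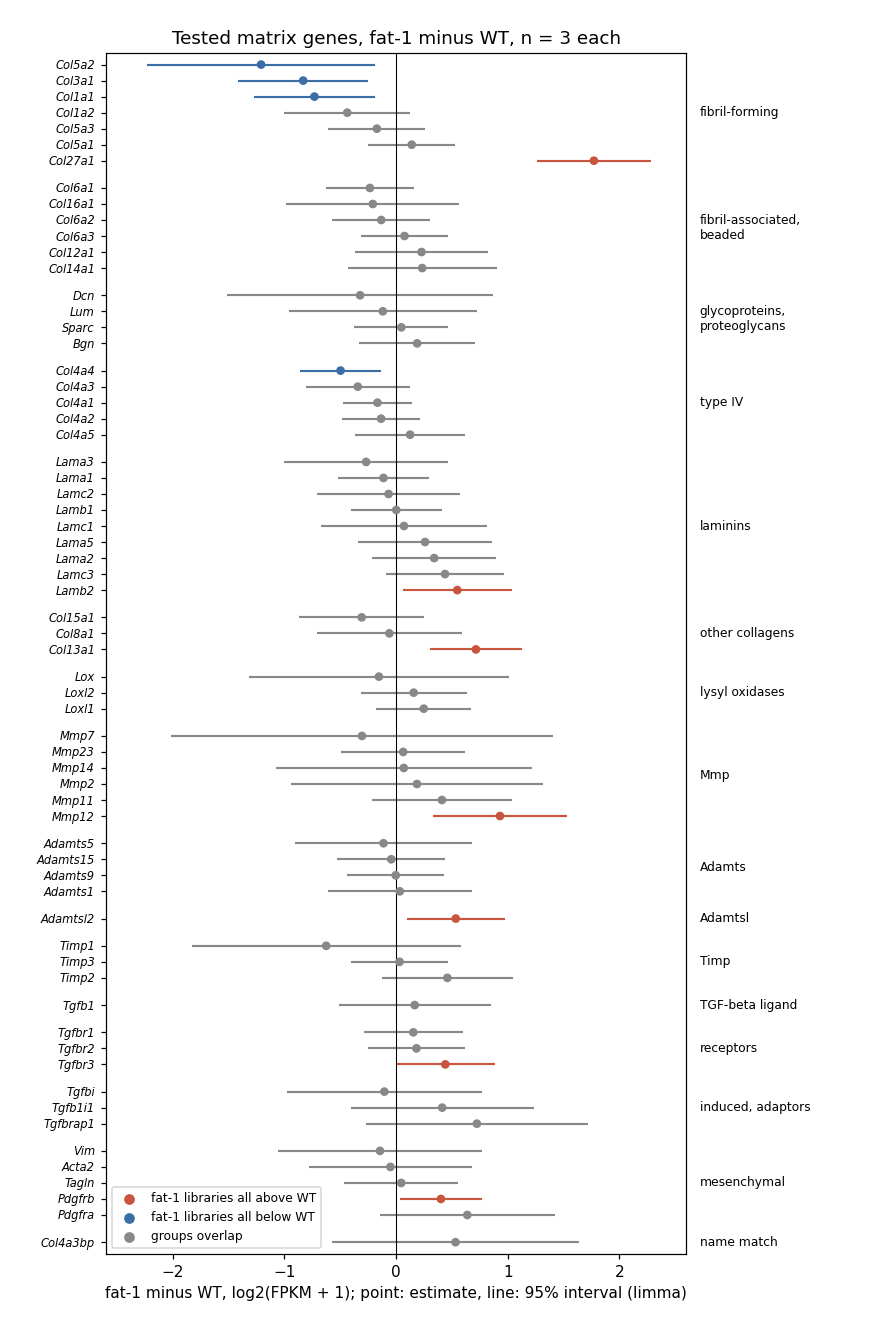
Difference between fat-1 and WT on the log2(FPKM + 1) scale for the 64 tested members, ordered by role, with 95% intervals from limma (n = 3 each). Red points mark the 7 members with all fat-1 libraries above WT and blue points the 4 below; Col27a1 at 1.77 lies farthest from 0, and Col5a2, Col3a1, Col1a1 and Col4a4 lie below it.

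Among the 7 tested fibril-forming collagens, 5 were lower and 2 higher in fat-1, with a median difference of -0.44. Col27a1 encodes a fibril-forming collagen best known from cartilage and lies at chr4:63215435-63334991. It measured 7.10, 9.35 and 8.68 FPKM in WT and 24.1, 28.9 and 42.1 FPKM in fat-1. The lowest fat-1 library was thus well above the highest WT library. The means were 8.38 ± 1.155 and 31.7 ± 9.31 FPKM (SD, n = 3), a ratio of 3.78. The log2 difference was 1.77 ± 0.22 (SE; 95% interval 1.26 to 2.29; limma adjusted p = 0.0496). That p sits just under the threshold: in 15 of 17 alternative settings it lay above it, between 0.0517 and 0.197, while the difference stayed between 1.55 and 1.94. The call held with scaling to the sum without mitochondrial genes (adjusted p = 0.0462) and with a filter at 5 FPKM (adjusted p = 0.0311).

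The main collagens of scar lay on the other side. Col1a1 (chr11:94936224-94953042), the alpha1 chain of type I collagen, had 8.14, 5.91 and 6.67 FPKM in WT and 4.99, 2.55 and 3.98 in fat-1, so the groups did not overlap. Its log2 difference was -0.73 (95% interval -1.27 to -0.19), which did not pass the adjustment over all genes (adjusted p = 0.321). Col3a1 (chr1:45311538-45349706), the single chain of type III collagen, had 12.7, 9.01 and 10.98 FPKM in WT and 8.04, 3.93 and 5.57 in fat-1. Here too every fat-1 library was below every WT library, with a log2 difference of -0.83 (interval -1.41 to -0.25; adjusted p = 0.287). Col1a1 and Col3a1 had like ratios in both groups, 0.634 ± 0.0245 in WT and 0.662 ± 0.0485 in fat-1. The ratio of Col27a1 to Col1a1 went from 1.25 ± 0.357 to 8.91 ± 3.55. That ratio could not overlap, since Col27a1 lay above and Col1a1 below WT in every fat-1 library, so it adds nothing to their single values.

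Col5a2, a chain of the type V collagen that nucleates type I fibrils, is the neighbour of Col3a1 (chr1:45374321-45503282, minus strand). It measured 15.6, 4.99 and 4.80 FPKM in WT and 2.05, 2.39 and 3.53 in fat-1. WT replicate 1 alone gives the large WT spread. The log2 difference was -1.21 (interval -2.23 to -0.19; adjusted p = 0.408), and -0.71 without that library, with the groups still apart. Col1a2, the second chain of type I collagen, overlapped: 17.8, 9.85 and 13.1 FPKM in WT beside 10.4, 7.42 and 11.1 in fat-1 (-0.44, interval -1.002 to 0.13). Without WT replicate 1 its difference was -0.23, while those of Col1a1 and Col3a1 were -0.62 and -0.72. The other type V chains stayed between 0.878 and 1.68 FPKM, Col5a1 with a difference of 0.14 and Col5a3 with -0.17. Without WT replicate 1 these were 0.22 and -0.28, with groups then apart in opposite directions.

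**Figure D2:**
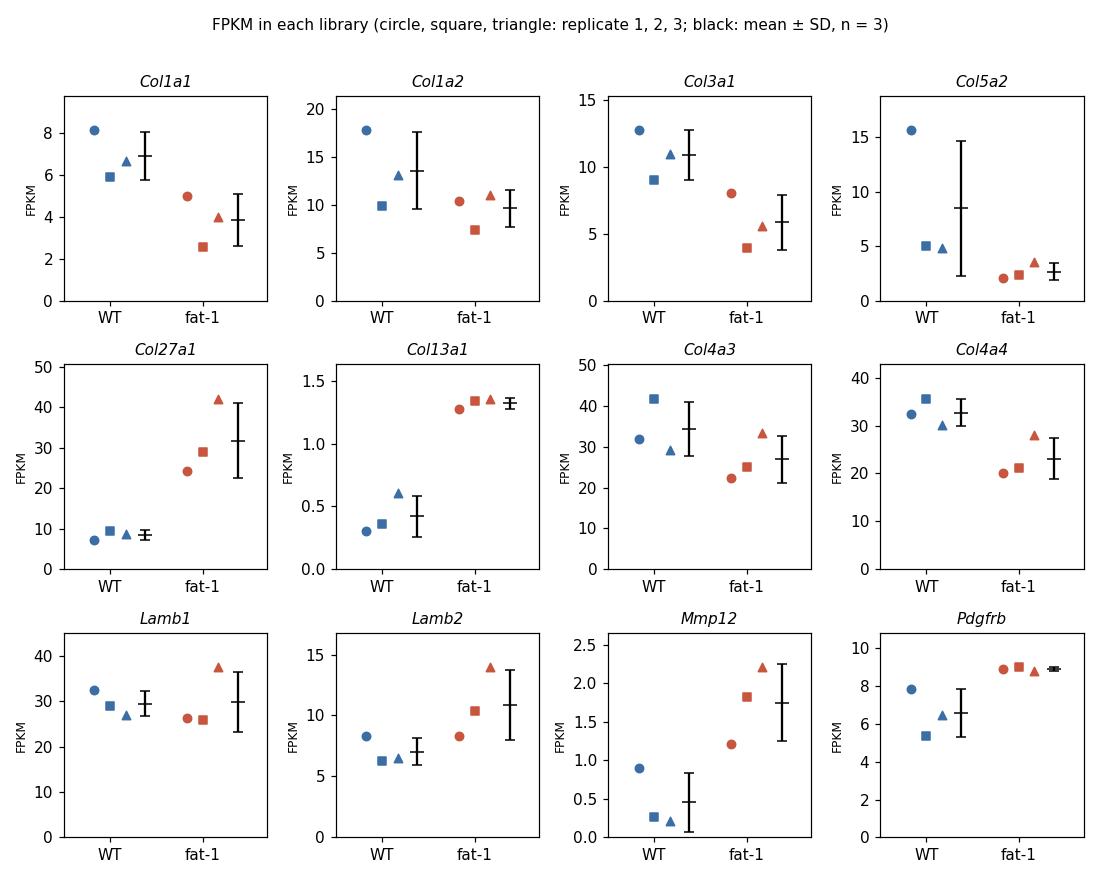
FPKM of 12 members in each library (blue WT, red fat-1; circle, square and triangle for replicates 1, 2 and 3), with mean ± SD (n = 3) in black and every axis starting at 0. Col27a1, Col13a1 and Mmp12 are higher in all fat-1 libraries, Col1a1, Col3a1, Col5a2 and Col4a4 are lower in all, and WT replicate 1 stands alone in Col5a2 at 15.6 FPKM.

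Collagens that decorate fibrils or form beaded filaments showed no such split, with 3 of 6 tested members positive, a median of -0.03 and no separated groups. Col6a1, which helps build the beaded filaments of type VI collagen, averaged 5.52 ± 1.10 FPKM in WT and 4.50 ± 0.299 in fat-1 (-0.23, interval -0.63 to 0.16). Its partner Col6a2 differed by -0.13 and Col6a3 by 0.08, or by 0.15 without WT replicate 1, with groups then apart. Col16a1 differed by -0.21, Col12a1 by 0.23 and Col14a1, which binds along type I fibrils, by 0.23, with its highest value, 11.7 FPKM, in fat-1 replicate 2.

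The small proteoglycans and glycoproteins of the interstitium overlapped in all 4 tested cases, with a median of -0.04. Dcn, decorin, spanned 47.3, 14.3 and 24.9 FPKM in WT and 11.9, 21.0 and 33.5 in fat-1. Its difference was -0.32 with all libraries and 0.10 without WT replicate 1, so that library sets the sign. Bgn, biglycan, averaged 74.0 ± 23.8 and 81.8 ± 1.74 FPKM (0.19, and 0.43 without WT replicate 1, with groups then apart), and Sparc, a collagen-binding glycoprotein, 57.3 ± 12.5 and 58.5 ± 5.19 FPKM. Lum, lumican, ranged from 0.840 to 3.40 FPKM over the 6 libraries. Fn1, the plasma and matrix fibronectin that is usually raised in scarring, stayed below the filter, between 0.743 and 1.85 FPKM. Postn, the matricellular protein periostin, was listed at 0 in 4 libraries and reached 1.55 FPKM in fat-1 replicate 3.

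Fibroblast markers as a list did not move one way: 3 of 9 tested were positive, the median was -0.19, and the list summed to between 53.0 and 115 FPKM in WT and between 58.6 and 91.1 in fat-1. Pdgfra, Dcn, Lum, Col1a1, Col1a2 and Col3a1 of that list are themselves members, so its count and median largely restate their values. Among the markers that are not, the surface protein gene Cd34, which endothelium also expresses, was higher in all fat-1 libraries (0.83, adjusted p = 0.203), Pi16 differed by -0.19 and Dpt by 0.25, while Gli1 and Scara5 stayed under 1 FPKM. Whether the number of fibroblasts has a part in the collagen values was not tested.

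Type IV collagens were lower in 4 of 5 tested members, with a median of -0.17. On the FPKM scale, which is per length, Col4a1, Col4a3 and Col4a4 had like mean levels in WT, between 32.7 and 34.3 FPKM, Col4a2 averaged 22.8 ± 3.36, Col4a5 5.99 ± 0.921, and Col4a6 stayed at or under 1.17 FPKM in every library. Col4a1 and Col4a2 form the network found in all basement membranes. Col4a1 had 35.7, 33.3 and 29.2 FPKM in WT and 26.3, 28.7 and 32.3 in fat-1 (-0.17, interval -0.47 to 0.14), and Col4a2 differed by -0.13. Their ratio was 1.45 ± 0.0928 in WT and 1.42 ± 0.137 in fat-1.

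Col4a3, Col4a4 and Col4a5 form the glomerular network whose loss causes Alport syndrome. Col4a4 (chr1:82448423-82586849) had 32.4, 35.7 and 30.1 FPKM in WT and 20.1, 21.1 and 28.0 in fat-1, without overlap. Its log2 difference was -0.50 (interval -0.86 to -0.13; adjusted p = 0.318), and the same, -0.50, without WT replicate 1. Col4a3 (chr1:82586976-82722059), which starts across the gap printed above, had 32.0, 41.9 and 29.2 FPKM in WT and 22.4, 25.0 and 33.4 in fat-1, which overlap (-0.34, adjusted p = 0.678). Col4a5, on chromosome X, had 6.72, 6.29 and 4.95 FPKM in WT and 5.76, 5.51 and 8.90 in fat-1 (0.13). The ratio of Col4a5 to Col4a4 was 0.183 ± 0.0220 in WT and 0.288 ± 0.0285 in fat-1, with all fat-1 libraries above WT, and that of Col4a4 to Col4a1 was 1.00 ± 0.0848 and 0.790 ± 0.0693, with all fat-1 libraries below. The ratios have no test.

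Podocyte markers lay the other way from Col4a4: 7 of 9 tested were positive, 4 had all fat-1 libraries above WT, the median was 0.39, and the list summed to between 93.4 and 112 FPKM in WT and between 131 and 150 in fat-1. Nphs1, nephrin of the slit diaphragm, averaged 4.09 ± 0.377 and 7.15 ± 0.982 FPKM. No podocyte marker was called, and how these cells bear on the type IV values was not tested.

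Laminins had 6 of 9 tested members positive and a median of 0.07. Lamb2 (chr9:108479857-108490530), the beta2 chain of the mature glomerular and vascular laminin, had 8.29, 6.23 and 6.54 FPKM in WT and 8.31, 10.4 and 13.98 in fat-1. The highest WT and the lowest fat-1 library were almost equal. The difference of 0.55 (interval 0.06 to 1.04) did not pass the adjustment (limma adjusted p = 0.442). The transcript Lamb2-201, on average 97.9% of the sum, had 8.28, 6.23 and 6.54 FPKM in WT and 7.97, 9.72 and 13.7 in fat-1. Those values overlap (0.49, interval -0.05 to 1.04), so the separation of the sums rests on the minor transcript Lamb2-207. Lamb1, the beta1 chain used more widely, had 32.4, 29.0 and 26.8 FPKM in WT and 26.2, 25.8 and 37.5 in fat-1, a difference of 0.0021. The ratio of Lamb2 to Lamb1 was 0.256, 0.215 and 0.244 in WT and 0.318, 0.402 and 0.373 in fat-1, so all fat-1 libraries were above WT. Lama5, the alpha chain that pairs with them, averaged 8.45 ± 2.51 and 10.2 ± 2.45 FPKM (0.26). Lamc1, the common gamma chain, averaged 6.31 ± 3.13 and 6.32 ± 1.34 FPKM (0.07). The transcript Lamc1-204 made up 80.6% of the Lamc1 sum in WT replicate 3 and 86.2% in fat-1 replicate 1. Lamc1-201 had 5.18, 3.69 and 1.90 FPKM in WT and 1.08, 4.94 and 5.67 in fat-1. Lamc3 differed by 0.44, Lama2 by 0.34, and Lama3 of epithelial laminin by -0.27, all with overlap.

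Endothelial markers were higher in fat-1 throughout: 12 of 12 tested were positive, 11 had groups apart, the median was 0.92, and they summed to between 110 and 135 FPKM in WT and between 208 and 284 in fat-1. Plvap of the fenestral diaphragm was the endothelial marker called (1.25, limma adjusted p = 0.0496), just under the threshold as for Col27a1. Endothelium makes laminin and type IV collagen, and its part in the values of Lamb2 and the type IV chains was not tested.

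The balance between the compartments was taken per library as the mean log2(FPKM + 1) of 17 tested interstitial genes minus that of 14 tested basement membrane genes. It was -0.0863, -0.516 and -0.242 in WT and -0.260, -0.498 and -0.430 in fat-1, so the groups overlap over most of their range. The group difference, -0.115, was smaller than the SD within groups, 0.176. Interstitial means differed by -0.10 and basement membrane means by 0.01. By gene, 7 of 17 interstitial and 7 of 14 basement membrane members were positive, with medians of -0.13 and -0.03. The value depends on how the classes are averaged: with medians in place of means the difference was -0.831 (SD 0.244), with type IV collagens alone as basement membrane it was 0.102 (SD 0.249), and without WT replicate 1 it was -0.0412 (SD 0.167). Other settings gave larger negative values than the SD within groups: -0.242 without WT replicate 2 (SD 0.131), -0.235 with laminins alone (SD 0.146), -0.224 with fibril-forming collagens alone (SD 0.166), -0.205 without fat-1 replicate 1 (SD 0.160) and -0.159 without a filter (SD 0.145). With a filter at 5 FPKM, which left 8 interstitial and 9 basement membrane genes, the difference was 0.0049 (SD 0.211). The size and sign of the balance difference therefore depend on the libraries and genes averaged. The interstitial class holds both Col27a1 and the lower Col1a1, Col3a1 and Col5a2.

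**Figure D3:**
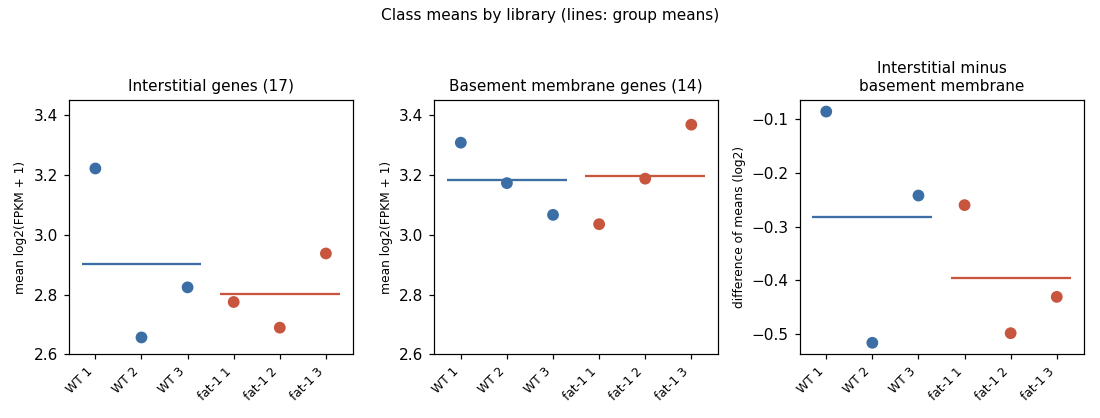
Mean log2(FPKM + 1) of the 17 interstitial and 14 basement membrane genes in each library, and their difference (points, libraries; lines, group means). The interstitial mean is highest in WT replicate 1 and the differences of the groups overlap, between -0.516 and -0.0863 in WT and between -0.498 and -0.260 in fat-1.

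Of the other collagens, Col13a1 (chr10:61838236-61979108), a transmembrane collagen of cell contacts, was low, with groups apart. No WT library reached 1 FPKM, so Col13a1 passed the filter only through fat-1, and its separation and p are conditional on that. It had 0.300, 0.359 and 0.605 FPKM in WT and 1.27, 1.34 and 1.36 in fat-1, a ratio of means of 3.14. Its difference was 0.72 (interval 0.30 to 1.13, limma adjusted p = 0.192), on a log2(FPKM + 1) scale that understates this ratio. Col15a1, a collagen at the outer face of basement membranes, averaged 4.33 ± 1.47 and 3.24 ± 0.635 FPKM (-0.31, and -0.09 without WT replicate 1), and Col8a1 of vessel walls differed by -0.06. Among the cross-linking enzymes, Lox had 4.25 FPKM in WT replicate 1 and between 0.549 and 1.77 in the other 5 libraries. Loxl1, which acts on elastic fibres, differed by 0.25 and Loxl2 by 0.16, both with overlap. Without WT replicate 1 they differed by 0.37 and 0.27, with groups then apart for Loxl1 alone.

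The proteases held a similar mixture. Mmp12 (chr9:7347374-7360461), the macrophage elastase, had 0.894, 0.260 and 0.212 FPKM in WT and 1.21, 1.82 and 2.21 in fat-1, with no overlap. Mmp12 too passed the filter of 1 FPKM only through fat-1, and its separation and p are conditional on that. Its difference was 0.93 (interval 0.33 to 1.53, limma adjusted p = 0.251). Without WT replicate 1 it was 1.14 (limma adjusted p = 0.102). The ratio of the Mmp12 means was 3.84, which the log2(FPKM + 1) scale understates at such low values. Of the macrophage markers 0 of 9 tested were positive with all libraries and their median was -0.40, WT replicate 1 being far above the rest. Mmp14, which activates Mmp2 at the cell surface, had 12.54 FPKM in WT replicate 1, 2.75 and 3.23 in the other WT libraries, and 5.85, 4.47 and 5.63 in fat-1. Its difference was 0.07, and 0.66 without WT replicate 1, where the groups no longer overlapped (adjusted p = 0.194). Mmp2, gelatinase A, and Mmp7, matrilysin, were likewise highest in that library, at 3.21 and 8.81 FPKM. Mmp11 differed by 0.41, and by 0.62 without that library, with groups then apart (adjusted p = 0.327), and Mmp23 by 0.06.

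The 4 tested Adamts proteases had differences near 0 with all libraries. Adamts1 averaged 12.1 ± 5.19 and 11.9 ± 1.67 FPKM (0.03, and 0.34 without WT replicate 1, with groups then apart). Adamts15 differed by -0.04 and Adamts5, a main aggrecanase, by -0.11. Adamts9 averaged 1.78 ± 0.393 and 1.77 ± 0.240 FPKM. Adamtsl2, a microfibril-binding relative without protease activity, had 5.79, 3.96 and 5.30 FPKM in WT and 7.81, 6.35 and 8.97 in fat-1. These do not overlap, and the difference of 0.54 (interval 0.10 to 0.98) did not pass the adjustment (adjusted p = 0.382).

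Timp3, the inhibitor that binds to matrix, was by far the most abundant member, at 447 ± 79.2 FPKM in WT and 455 ± 70.9 in fat-1 (0.03, interval -0.40 to 0.46). Timp2 averaged 11.9 ± 2.78 and 16.9 ± 4.94 FPKM (0.46). Timp1, which rises in injured kidney, had 10.4, 3.66 and 5.99 FPKM in WT and 6.56, 1.35 and 4.69 in fat-1 (-0.63, interval -1.83 to 0.58, and -0.29 without WT replicate 1).

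**Figure D4:**
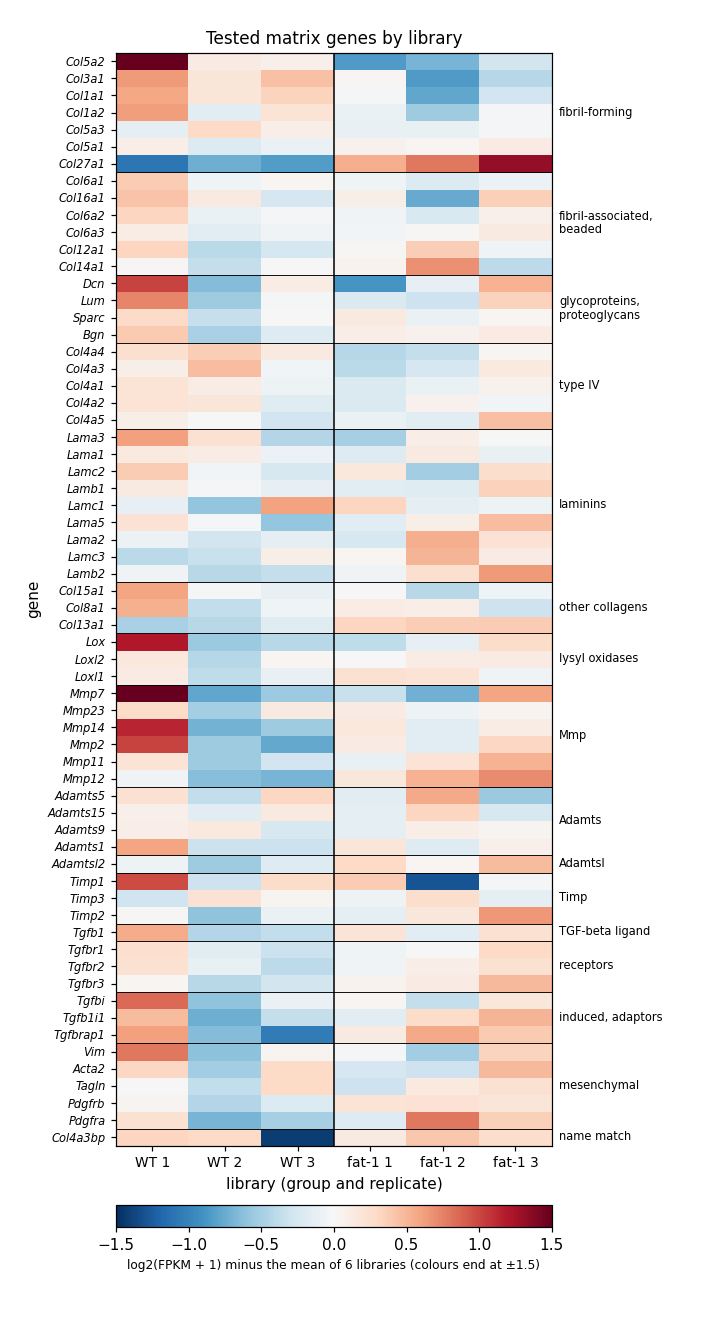
Log2(FPKM + 1) of the 64 tested members in each library, minus the mean of the 6 libraries, ordered by role (red above, blue below, colours end at 1.5 on either side). WT replicate 1 is the highest library for 31 members, seen as the red cells of its column in Col5a2, Dcn, Lox, Mmp7, Mmp14, Tgfbi and Vim.

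With all libraries, TGF-beta genes overlapped except Tgfbr3. Of the ligands only Tgfb1 was tested, at 11.4, 5.21 and 5.57 FPKM in WT and 8.66, 6.53 and 8.86 in fat-1 (0.17, interval -0.51 to 0.85). Without WT replicate 1 the difference was 0.49 (interval 0.06 to 0.91, adjusted p = 0.300) and the groups no longer overlapped. Tgfb2 and Tgfb3 stayed between 0.344 and 1.03 FPKM. The signalling receptors Tgfbr1 and Tgfbr2 differed by 0.15 and 0.18, and by 0.32 and 0.34 without WT replicate 1, then with groups apart. Tgfbr3, the co-receptor betaglycan, had 5.45, 3.76 and 4.25 FPKM in WT and 5.58, 5.92 and 7.85 in fat-1 (0.44, adjusted p = 0.502), just apart. Tgfbi, a TGF-beta-induced matrix protein, had 23.6 FPKM in WT replicate 1 and between 7.99 and 14.3 elsewhere, so that its difference was -0.10 with that library and 0.30 without. Tgfbrap1, an adaptor that binds TGF-beta receptors, differed by 0.72 (interval -0.27 to 1.72) and, without WT replicate 1, by 1.21 (adjusted p = 0.0826). The focal adhesion adaptor Tgfb1i1 differed by 0.41, and by 0.75 without that library (adjusted p = 0.279), with groups apart.

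Of the mesenchymal genes, Pdgfrb (chr18:61045150-61085061), the growth factor receptor of pericytes and mesangial cells, had 7.86, 5.32 and 6.47 FPKM in WT and 8.89, 8.99 and 8.78 in fat-1. The fat-1 libraries were nearly equal and all above WT (0.40, interval 0.03 to 0.77; adjusted p = 0.452). Pericyte and mesangial markers, Pdgfrb among them, were positive in 9 of 11 cases with a median of 0.27, and summed to between 45.9 and 73.2 FPKM in WT and between 61.8 and 91.3 in fat-1. Pdgfra, the receptor of fibroblasts, averaged 4.48 ± 1.94 and 7.53 ± 2.82 FPKM (0.64), with overlap. Without WT replicate 1 its groups were apart (0.91, interval 0.19 to 1.63, adjusted p = 0.263). Acta2, the actin of smooth muscle and of myofibroblasts, had 30.6, 16.7 and 29.98 FPKM in WT and 20.4, 19.4 and 34.7 in fat-1 (-0.05), and its companion Tagln differed by 0.05. Vim, vimentin, was 38.8 FPKM in WT replicate 1 and between 13.998 and 28.1 in the other libraries (-0.14, and 0.22 without WT replicate 1).

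Leaving out WT replicate 1, the highest library for 31 of the 64 tested members, shifted the differences upward, which this choice of library brings by itself. Of 60 members then tested, 41 were positive and the median was 0.21, where the median of all genes was 0.05. At an unadjusted p under 0.05, 14 of the 60 were higher and 4 lower, beside 9.05% and 4.75% of all genes. All fat-1 libraries lay above both WT libraries in 20 of the 60, a larger share than the 20.4% of all genes. limma called 0 members at an adjusted p of 0.05. The lower values of Col1a1, Col3a1, Col5a2 and Col4a4 and the higher ones of Col27a1, Mmp12, Col13a1 and Lamb2 kept their sign, while Dcn, Tgfbi and Vim went from below to above 0. Without WT replicate 2 instead, the shift was downward, with 26 of 63 members positive and a median of -0.08 (all genes, -0.01). At an unadjusted p under 0.05, 3 of the 63 were then higher and 4 lower, beside 541 and 385 of all 11606 genes. Groups that are apart only without WT replicate 1 thus rest on that choice.

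**Figure D5:**
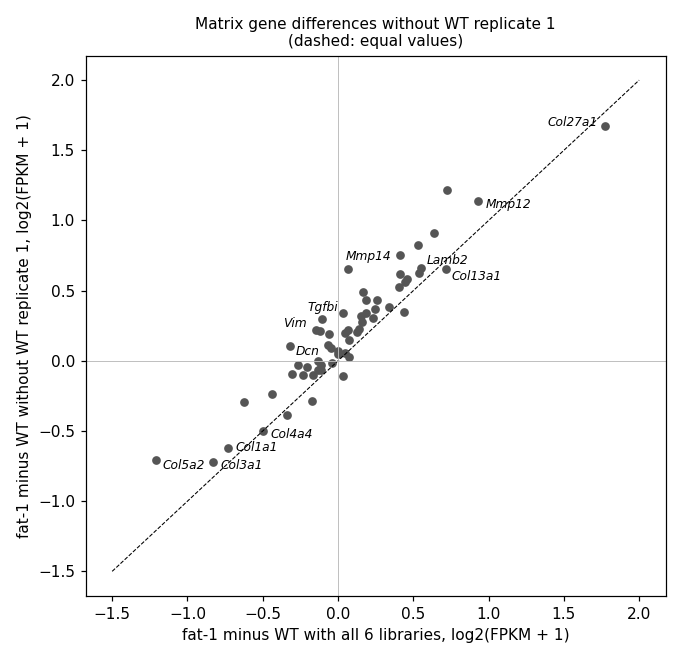
Difference between fat-1 and WT for members tested both with all 6 libraries (horizontal axis) and without WT replicate 1 (vertical axis), both on the log2(FPKM + 1) scale. Most points lie above the dashed line of equal values; Dcn, Tgfbi and Vim are in the upper left part, and Col27a1 moves from 1.77 to 1.67.

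Other genes of matrix biology gave 0 calls at an adjusted p of 0.05 in limma, with counts in each direction as follows. Over all genes, 5.80% were higher and 4.16% lower at an unadjusted p under 0.05, which is the background for each list. Basement membrane partners were positive in 6 of 11 cases (median 0.10), with 2 higher and 2 lower at an unadjusted p under 0.05. Pxdn, the peroxidase that cross-links type IV collagen, averaged 2.02 ± 0.432 and 3.996 ± 0.593 FPKM (0.73, adjusted p = 0.205), while the laminin binder Nid2 differed by -0.60 and the integrin ligand Npnt by -0.56, all 3 with groups apart. Genes of collagen maturation were positive in 10 of 18 cases (median 0.05), with 1 higher and 1 lower at that p. Pcolce, which enhances the trimming of fibrillar procollagens, had 42.2, 55.4 and 41.5 FPKM in WT and 27.8, 27.3 and 28.2 in fat-1 (-0.71, adjusted p = 0.122), a separation on the same side as Col1a1 and Col3a1. P3h4, of the procollagen hydroxylase complex, differed by 0.88 and P3h2, a prolyl 3-hydroxylase, by 0.40.

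Elastic fibre genes were positive in 8 of 11 cases (median 0.21), with 0 at an unadjusted p under 0.05. Ltbp4, a latent TGF-beta binding protein, differed by 0.44, Ltbp3 by 0.32 and Fbln5, which assembles elastin, by 1.46 with a wide interval of -0.39 to 3.30. Other proteoglycans and matricellular genes were positive in 12 of 13 cases (median 0.33), 1 of them at that p. The tenascin gene Tnxb had groups apart, at 0.844 ± 0.0495 and 1.94 ± 0.260 FPKM, and Prelp and Sparcl1 did not. Tnxb passed the filter only through its fat-1 libraries. In the TGF-beta signalling list, 12 of 19 were positive (median 0.15), and 2 were higher and 1 lower at that p. Itgb6, the integrin chain that activates latent TGF-beta on epithelia, had 41.0, 40.8 and 49.8 FPKM in WT and 23.5, 18.4 and 16.2 in fat-1. It was the nearest of these genes to a call (-1.15 ± 0.16 SE, adjusted p = 0.0655). The endothelial co-receptor Eng differed by 0.47 and Lrrc32, which holds latent TGF-beta at the cell surface, by 0.56.

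Matrix receptors were positive in 10 of 14 cases (median 0.18), with 1 higher at that p: Itga8, the mesangial nephronectin receptor chain, at 2.00 ± 0.279 and 3.64 ± 0.605 FPKM (0.63), with Itga5 at 0.38 and Itgb5 at 0.27. The plasminogen system was positive in 3 of 6 cases (median -0.06), with 2 higher and 2 lower at that p. The activator Plat had 19.6, 20.2 and 21.4 FPKM in WT and 31.5, 39.2 and 47.4 in fat-1 (0.90, limma adjusted p = 0.103). The urokinase receptor Plaur differed by 0.94, and urokinase itself, Plau, by -0.63. Of 6 meprin, kallikrein and cathepsin genes, 2 were positive (median -0.17) and 0 passed that p. Mep1b, a brush border meprin, differed by -1.18, Mep1a by -0.26 and the lysosomal protease Ctsl by -0.27, all with overlap.

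Single transcripts were also compared. Of 129 member transcripts 72 were tested, 0 passed an adjusted p of 0.05 in limma (0.0584% of all tested transcripts did), and 11, or 15.3%, had an unadjusted p under 0.05, beside 8.13% of all. Most of the 11 are the only transcript of their gene, Col27a1 and Col1a1 among them. The transcript Lamb1-205 had 1.14, 3.08 and 0.0076 FPKM in WT and 7.34, 5.73 and 5.03 in fat-1, while the Lamb1 sum did not differ. Tgfbrap1-201 had 6.63, 3.87 and 1.597 FPKM in WT and 9.18, 9.36 and 8.97 in fat-1. For Sparc, the transcript Sparc-201 held 43.4 to 64.9 FPKM in 5 libraries and 1.47 in fat-1 replicate 2, where Sparc-202 held 44.1. The split of reads among the transcripts of a gene was made by the authors' software, and the Sparc sum in that library, 53.3 FPKM, lay within the range of the others.

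Members below the filter, 28 in all, reached at most 2.97 FPKM in any library. All fat-1 libraries lay above WT in 6 of the 28, where 6.36% of all genes below the filter did. They lay below WT in 3 of the 28, where 4.80% did. Those above were Adamts4, Adamtsl5, Col20a1, Lama4, Lamb3 and Mmp28, and those below were Adamts6, Adamts16 and Loxl4, named after their values were seen. Adamts16, a protease gene studied in blood pressure, had 1.18, 0.813 and 0.770 FPKM in WT and 0.016, 0.046 and 0.0477 in fat-1. In a fit without the filter its difference was -0.88 (limma adjusted p = 0.120). Adamtsl5 was listed at 0 in all 3 WT libraries and had 0.668, 0.816 and 0.693 FPKM in the fat-1 libraries, with a limma adjusted p of 0.124 in that fit. Lama4, the alpha chain of endothelial laminin, had 0.608, 0.501 and 0.585 FPKM in WT and 0.749, 1.06 and 1.56 in fat-1, the same side as the endothelial markers. These are low values, for which a difference on the log2(FPKM + 1) scale understates the ratio.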

How the data were processed

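Kidney RNA was measured in 6 libraries, 3 WT and 3 fat-1. The authors deposited FPKM per transcript, with a table for each sample. In the submitters' processing notes the build was mm10 and the tools were DESeq2 1.20.0, featureCounts 1.5.0-p3 and HISAT2 2.0.5; the tool that computed FPKM is not given in the sources used. The listed transcripts were summed per gene identifier. Gene symbols that had been turned into dates were restored. The division of reads among transcripts and near-identical genes enters every FPKM value.

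Low values did not give whole reads. For 6072 genes with 1 transcript, between 19.6% and 37.6% lay within 0.05 of a whole multiple of a step. The step was the one with the highest share among many tried in each library. An even spread gives 10% for a step fixed beforehand, and more for a step picked in this way. The depth is therefore unknown and no counting intervals are given. Libraries of a group correlated at 0.942 to 0.976 (log2 values over genes) and those of different groups at 0.946 to 0.970. No 2 libraries held identical values.

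The test was limma 3.58.1 (R 4.3.3), run on log2(FPKM + 1) for genes that reached 1 FPKM in 3 or more libraries. It used an intensity trend and robust estimation, without covariates or rescaling. This scale understates the change of low genes. Benjamini-Hochberg adjustment ran over every gene, or transcript, in the fit, and the threshold was 0.05. The script was tested on simulated data. Balance and ratios have no test.

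The members and lists were chosen with earlier results of these data known. Members named were those called, a set of well-known matrix genes, up to 3 per role by smallest p, the 2 most abundant per role and those with groups apart, and up to 3 per related list by smallest p. Others named were chosen after their values were seen. Alternatives covered scaling, filter, pseudocount, variance estimation and each replicate left out. One collagen gene is not reported here. Tables and plots were made with pandas 2.3.3 and matplotlib 3.10.9 in Python 3.11.15.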

Additional observations from a re-analysis of the deposited data

How the results depend on the processing

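No paired analysis was possible because the labels do not number the fat-1 libraries 1 to 3: those numbers follow the order of deposit, only name the libraries, and mark no pairs with WT. The number of all genes called, 21, was 10 with the trimmed mean of M values, 10 with median-of-ratios factors, 11 with upper quartile scaling, 32 with the sum without mitochondrial genes, 34 with quantile normalization, 4 without a filter, 42 at 5 FPKM, 3 without the intensity trend, and between 0 and 25 with a replicate left out. The single matrix call, Col27a1, went to 0 with the first 3 of those scalings, quantile normalization, a pseudocount of 0.1 or 0.5, no filter, no robust estimation, no intensity trend, and each replicate left out (0 in every case). Without the filter, 13 of 92 members lay above and 7 below WT in all libraries, beside 8.05% and 6.56% of all genes. With a replicate left out, between 58 and 63 members were tested. The count above was then between 5 and 20, beside 11.1% to 20.4% of all genes. Without WT replicate 1 it was 20 of 60 members, a larger share than the 20.4% of all genes. The count below was between 5 and 8, beside 8.87% to 14.0% of all genes. It was 7 of 63 without WT replicate 2 (11.2% of all genes) and 8 of 63 without WT replicate 3 (10.5%). Without fat-1 replicate 3 it was 7 of 58 (14.0%). Transcripts called, 10, were 3 at 5 FPKM and between 0 and 3 with a replicate left out. The balance of -0.115 was -0.831 with medians, 0.102 with type IV collagens alone, 0.0049 with a filter at 5 FPKM and between -0.242 and -0.0412 with a replicate left out.

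Over 79 named genes, 1229 of 1295 values kept direction and side of the threshold, 15 lost the call (all Col27a1), 2 gained it (Itgb6) and 49 changed sign, in 24 genes. Lamb1 was -0.014 with the trimmed mean of M values, -0.015 with median-of-ratios factors and -0.0091 with upper quartile scaling. With a replicate left out, Acta2 ranged from -0.32 to 0.10, Adamts1 from -0.12 to 0.34, Adamts15 from -0.22 to 0.069 and Adamts5 from -0.42 to 0.14. Bgn ranged from -0.0056 to 0.43, Col14a1 from -0.050 to 0.49, Col4a3bp from -0.043 to 0.83 and Col4a5 from -0.066 to 0.24. Col8a1 ranged from -0.26 to 0.19, Dcn from -0.72 to 0.10, Lamb1 from -0.17 to 0.093 and Lamc1 from -0.21 to 0.39. Lox ranged from -0.47 to 0.0011, Loxl2 from -0.014 to 0.27, Lum from -0.41 to 0.22 and Mmp14 from -0.27 to 0.66. Mmp2 ranged from -0.15 to 0.31, Mmp23 from -0.18 to 0.22, Sparc from -0.11 to 0.20 and Tagln from -0.12 to 0.21. Tgfb1 ranged from -0.012 to 0.49, Tgfbi from -0.43 to 0.30, Timp3 from -0.11 to 0.15 and Vim from -0.49 to 0.22. The cause was not tested for any of these.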
